A study of Saccharomyces cerevisiae with 9 samples.

Results

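The 8 genes that encode the enzymes of heme synthesis in budding yeast (HEM1, HEM2, HEM3, HEM4, HEM12, HEM13, HEM14 and HEM15) and the transcription factor genes HAP1 and ROX1, through which heme and oxygen act on transcription, were examined in aged cultures of a telomere mutant. The members were taken as a list of gene names and matched by locus tag, and all 10 had a row among the 5205 genes of the count table. Gene expression had been measured by sequencing of poly(A)-enriched RNA in 9 libraries of the strain W303, 3 biological replicates for each of 3 groups. WT-red were red cells of the wild type, K504E-red were red cells carrying cdc13-K504E, and K504E-white were white cells carrying the same allele. All groups, the wild type included, had been kept in YPD, a rich glucose medium, for 15 days of stationary phase. Cdc13 binds single-stranded telomeric DNA, and the series title calls the mutant form defective in junction binding. Red pigment in W303 comes from its ade2 mutation, which blocks adenine synthesis. White cells of the wild type are not among the groups, so in K504E-white versus WT-red the allele and the colour cannot be told apart. The labels do not say whether replicates were started from separate colonies, so p-values measure the spread between these samples.

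Heme is an iron porphyrin carried by cytochromes, catalases and several oxygen-using enzymes. In yeast its synthesis starts in mitochondria with HEM1, which joins glycine and succinyl-CoA, continues in the cytosol with HEM2, HEM3, HEM4, HEM12 and HEM13, and ends in mitochondria with HEM14 and with HEM15, which inserts the iron. Hem13 needs molecular oxygen, so heme serves the cell as a sign of oxygen. Heme activates Hap1, Hap1 activates ROX1 and respiratory genes, and Rox1 represses hypoxic genes, HEM13 among them. HEM13 is therefore known as a gene whose transcript rises when heme or oxygen is short.

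Libraries held 27388755 to 34634199 counts, and each member had 834 to 46733 of them per library. Replicates of a group differed beyond counting noise in all 9 pairs, so none was the same library sequenced again. Such a difference cannot tell separate cultures from separate preparations of the same culture. Gene counts cannot show the K504E substitution itself. CDC13 had 25.2 ± 2.15, 27.7 ± 5.18 and 21.2 ± 0.507 CPM in WT-red, K504E-red and K504E-white (SD, n = 3). CPM is the count scaled to a common library size. FPKM, the authors' value per length of gene, is used where levels of different genes are set side by side. In bulk cultures, fewer cells expressing a gene and less RNA in each cell cannot be told apart.

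Per length, HEM13 was the most abundant of the 10 transcripts in every group, at 539 ± 34.4 FPKM for WT-red, 359.6 ± 39.0 for K504E-red and 1307 ± 56.3 for K504E-white (SD, n = 3). In WT-red it was followed by HEM15 (274 ± 4.37 FPKM) and HEM2 (273 ± 6.81), whose libraries overlapped, then by HEM12 (228 ± 9.21). HEM3 (129 ± 2.96), ROX1 (126 ± 7.69) and HEM1 (124 ± 8.35) came next and overlapped each other. HEM14 (62.9 ± 1.92), HAP1 (48.2 ± 2.09) and HEM4 (40.4 ± 1.68) were lowest, with no overlap among them. In K504E-red, HEM14 (66.8 to 75.6 FPKM) overlapped HAP1 (62.6 to 67.3). In K504E-white, HEM15 at 352 ± 10.2 FPKM stood clear of HEM2 at 281 ± 10.8, and HEM1 at 156 ± 7.20 stood clear of HEM3 at 109 ± 2.51.

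**Figure D1:**
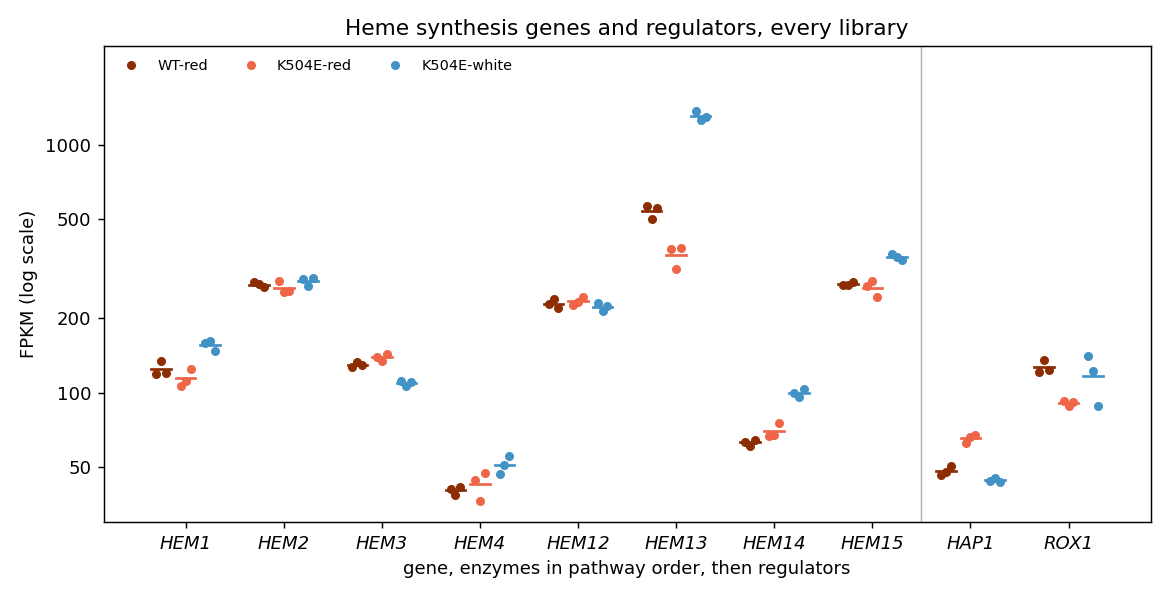
FPKM (log axis) of the 8 enzyme genes in pathway order and of HAP1 and ROX1; each point is 1 library, horizontal bars are group means, and colours mark the 3 groups. HEM13 is the highest gene in each group, and the 3 K504E-white points of ROX1 are spread from 88.5 to 140.3 FPKM.

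HEM13 (YDR044W, W303 contig 183, 97635 to 98621, minus strand), coproporphyrinogen III oxidase, changed most of the members. Its levels were 557, 491 and 553 CPM for WT-red, 380.4, 313 and 383 CPM for K504E-red and 1358, 1248 and 1281 CPM for K504E-white, each in the order of replicates 1, 2 and 3. K504E-red was lowest and K504E-white highest, and no groups overlapped. For K504E-red versus WT-red the log2 fold change of HEM13 was -0.57 (SE 0.0721, edgeR adjusted p 6.07e-06), a level 0.673 times that of WT-red. For K504E-white versus WT-red it was 1.28 (SE 0.0726, edgeR adjusted p 1.21e-10), or 2.43-fold. White versus red cells of the mutant differed by 1.85 (SE 0.0739, edgeR adjusted p 6.89e-13), or 3.61-fold. By size of change HEM13 ranked 51 of 5172 tested genes between the colours, 120 for K504E-white versus WT-red and 397 for K504E-red versus WT-red. Each of the 3 calls was retained under all 18 alternative settings.

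The enzymes that follow HEM13 in the pathway rose in K504E-white. HEM14 (YER014W, W303 contig 46, 65823 to 67442, minus strand), protoporphyrinogen oxidase, had 103, 98.0 and 106 CPM for WT-red, 109.7, 109.9 and 124 for K504E-red and 162, 156 and 168 for K504E-white. All K504E-white libraries lay above the 6 red ones. HEM14 was higher by 0.67 (SE 0.0618, edgeR adjusted p 9.39e-08) on the log2 scale than in WT-red and by 0.50 (SE 0.0616) than in K504E-red. For K504E-red versus WT-red it was at 0.16 (SE 0.0620, edgeR adjusted p 0.0390), a call retained under 4 of 18 alternatives, and at 0.07 without K504E-red replicate 3. HEM15 (YOR176W, W303 contig 85, 61706 to 62887, plus strand), ferrochelatase, had 321, 319.7 and 334 CPM for WT-red, 324, 337 and 290.3 for K504E-red and 429, 419 and 405 for K504E-white. The red groups overlapped and K504E-white lay above both, by 0.36 (SE 0.0564, edgeR adjusted p 4.40e-05) and 0.40 (SE 0.0565) on the log2 scale. K504E-red versus WT-red was not called for HEM15, at -0.04 (95% interval -0.15 to 0.07).

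**Figure D2:**
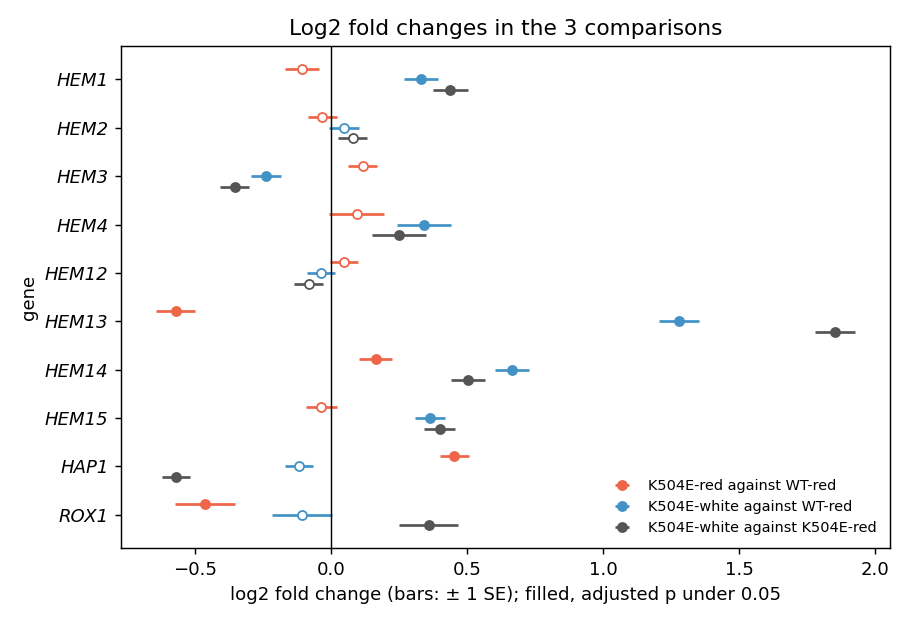
Log2 fold change (x axis) of each gene (y axis) in the 3 comparisons, with bars of 1 SE; filled points have an adjusted p under 0.05 by edgeR and open points do not. HEM13 is at -0.57, 1.28 and 1.85, while HEM2 and HEM12 are open in every comparison.

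HEM1 (YDR232W, W303 contig 212, 52197 to 53843, minus strand), 5-aminolevulinate synthase, the first enzyme, rose in K504E-white as well. It had 195, 219 and 200.3 CPM for WT-red, 178, 185 and 207 for K504E-red and 262, 266 and 244 for K504E-white. The red groups overlapped and K504E-white lay above them, by 0.33 (SE 0.0635, edgeR adjusted p 3.63e-04) relative to WT-red and 0.44 (SE 0.0637) relative to K504E-red on the log2 scale. K504E-red versus WT-red was at -0.11 (edgeR adjusted p 0.181), and at -0.21 (adjusted p 0.0183) once K504E-red replicate 3 was left out.

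The cytosolic steps between HEM1 and HEM13 did not share a direction. HEM3 (YDL205C, W303 contig 101, 47601 to 48584, minus strand), porphobilinogen deaminase, fell in K504E-white. It had 125, 129.6 and 129 CPM for WT-red, 139, 133 and 142 for K504E-red and 110.0, 105 and 109 for K504E-white. Every K504E-white library was below every red one, and the log2 fold change of HEM3 was -0.24 (SE 0.0539, edgeR adjusted p 0.00140) relative to WT-red and -0.36 (SE 0.0539) relative to K504E-red. K504E-red libraries lay above those of WT-red, but the difference of 0.12 was not called (edgeR adjusted p 0.0883).

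HEM4 (YOR278W, W303 contig 7, 126553 to 127380, minus strand), uroporphyrinogen III synthase, was the least abundant member per length in both red groups. It had 34.0, 31.7 and 35.0 CPM for WT-red, 37.2, 30.6 and 39.5 for K504E-red and 39.2, 42.4 and 45.9 for K504E-white. K504E-white lay above WT-red with no overlap, by 0.34 (SE 0.0999, edgeR adjusted p 0.00954) on the log2 scale, a call lost only without K504E-white replicate 3, at 0.26. Between the colours HEM4 differed by 0.25 (SE 0.0999, edgeR adjusted p 0.0442), with overlapping libraries. That second call was lost under 5 of 18 alternatives, among them the omission of WT-red replicate 3 (0.25), K504E-red replicate 2 (0.15), K504E-white replicate 2 (0.25) or K504E-white replicate 3 (0.19).

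HEM2 (YGL040C, W303 contig 137, 109575 to 110603, plus strand), 5-aminolevulinate dehydratase, and HEM12 (YDR047W, W303 contig 183, 92315 to 93403, minus strand), uroporphyrinogen decarboxylase, were called in no comparison. HEM2 ranged from 264 to 298 CPM over the 9 libraries and HEM12 from 232 to 268 CPM. For K504E-white versus WT-red the 95% interval of the log2 fold change was -0.06 to 0.15 for HEM2 and -0.14 to 0.06 for HEM12. Between the colours these intervals were -0.03 to 0.18 and -0.19 to 0.02. HEM12 and HEM13 lie on the same contig and strand, and the groups overlapped for HEM12 but not for HEM13.

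Summed over the 8 enzyme genes, FPKM was 1671 ± 22.0 for WT-red, 1489 ± 49.3 for K504E-red and 2578 ± 78.3 for K504E-white (SD, n = 3). HEM13 made up 32.2% ± 1.67, 24.1% ± 1.86 and 50.7% ± 0.644 of those sums. The other 7 genes summed to 1132 ± 14.9 FPKM for WT-red, 1129 ± 10.4 for K504E-red and 1271 ± 22.3 for K504E-white. Of the difference between the mean sums of K504E-white and WT-red, 84.7% came from HEM13.

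Ratios of genes within a library do not depend on library scaling. HEM13 over HEM12, the preceding enzyme, was 2.11 to 2.53 for WT-red, 1.36 to 1.68 for K504E-red and 5.76 to 5.96 for K504E-white. HEM15 over HEM3 was 2.05 to 2.16, 1.70 to 2.10 and 3.09 to 3.32 in the same order of groups. K504E-white stood apart from the red groups in both ratios, and for HEM15 over HEM3 the red groups overlapped. Both ratios restate levels given above, where HEM13 and HEM15 were higher and HEM3 lower in K504E-white, so they are not further support.

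**Figure D3:**
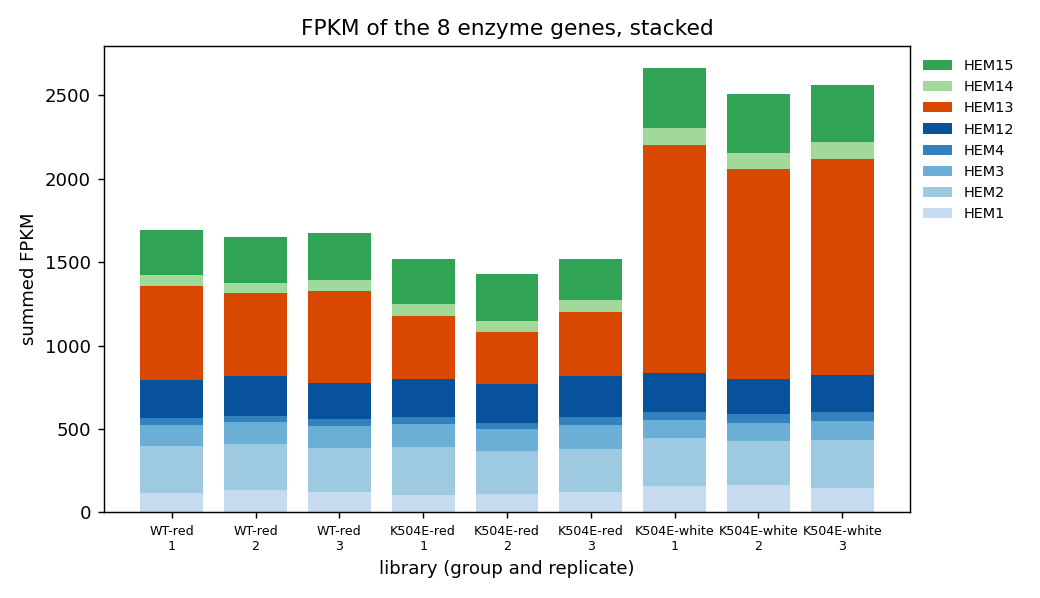
Summed FPKM of the 8 enzyme genes in each of the 9 libraries, stacked in pathway order from HEM1 at the bottom to HEM15 at the top. The HEM13 segment is 50.2% to 51.4% of the bar in K504E-white and 22.0% to 25.3% in K504E-red.

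HAP1 (YLR256W, W303 contig 225, 182 to 4633, minus strand), the heme-responsive zinc finger activator, was highest in K504E-red. It had 206, 211 and 227 CPM for WT-red, 283, 298 and 302 for K504E-red and 198, 202 and 195 for K504E-white, and no groups overlapped. HAP1 differed by 0.45 (SE 0.0526, edgeR adjusted p 3.09e-06) on the log2 scale for K504E-red versus WT-red and by -0.57 (SE 0.0526, edgeR adjusted p 6.51e-08) for white versus red mutant cells. K504E-white versus WT-red was at -0.12 (SE 0.0526, edgeR adjusted p 0.0741) and not called, while 7 of 18 alternatives called it lower. These included the omission of WT-red replicate 1 (-0.18), K504E-red replicate 2 (-0.15) or 3 (-0.15) and K504E-white replicate 2 (-0.17). The W303 gene model of HAP1 spans 4452 bp, against 4509 bp in the RefSeq table of the strain S288C, whose HAP1 carries a Ty1 insertion at its 3′ end. For the other 9 members both lengths were equal.

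ROX1 (YPR065W, W303 contig 122, 21173 to 22279, minus strand), the repressor of hypoxic genes, fell in K504E-red. It had 134, 149 and 138 CPM for WT-red, 104, 98.5 and 102 for K504E-red and 156, 136 and 98.3 for K504E-white. K504E-red lay below WT-red, and K504E-white spanned the range of both. ROX1 differed by -0.47 (SE 0.110, edgeR adjusted p 0.00213) on the log2 scale for K504E-red versus WT-red, a call retained under all 18 alternatives. White versus red mutant cells differed by 0.36 (SE 0.110, edgeR adjusted p 0.0106), but without K504E-white replicate 1 the value was 0.21 (adjusted p 0.0990). K504E-white versus WT-red was at -0.11 (edgeR adjusted p 0.450), and went from -0.29 without K504E-white replicate 1 (adjusted p 0.0295) to 0.03 without K504E-white replicate 3. ROX1 over HAP1 in FPKM was 2.45 to 2.83 for WT-red, 1.33 to 1.48 for K504E-red and 2.03 to 3.18 for K504E-white.

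**Figure D4:**
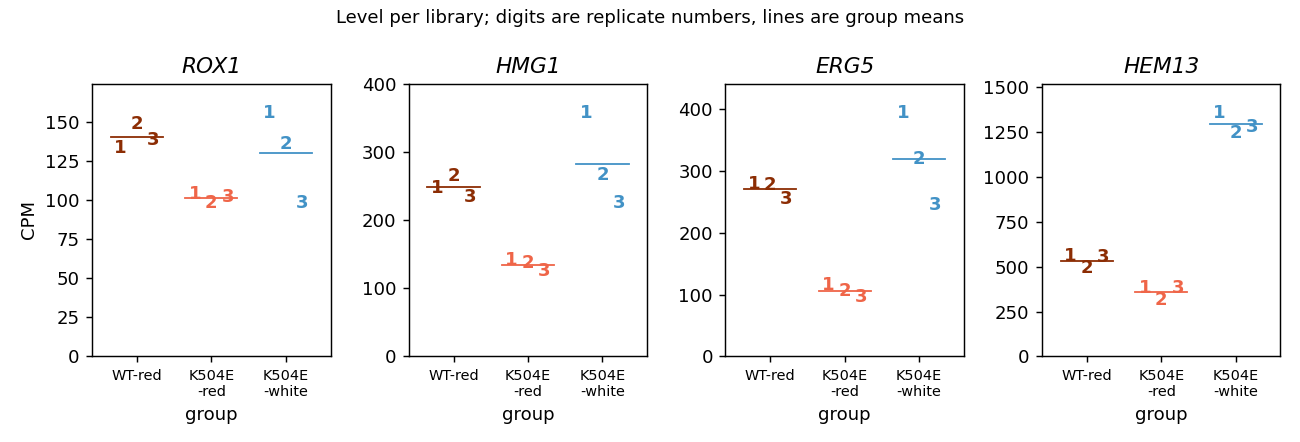
CPM of ROX1, HMG1, ERG5 and HEM13 in each library by group; digits are replicate numbers and lines are group means, with axes starting at 0. In K504E-white, replicate 1 is the highest and replicate 3 the lowest for ROX1, HMG1 and ERG5, while HEM13 had 1358, 1248 and 1281 CPM there.

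Counts of changed members were read against the share of all 5172 tested genes that changed. For K504E-red versus WT-red 4 of 10 members were called, beside 47.5% of all genes, and this count is near its background. HEM14 and HAP1 were higher and HEM13 and ROX1 lower. For K504E-white versus WT-red 6 of 10 were called, beside 46.8% of all genes, again not far from background. HEM1, HEM4, HEM13, HEM14 and HEM15 were higher (23.3% of all genes) and HEM3 lower (23.5%). White and red mutant cells differed in 8 of 10, beside 54.5% of all genes, with 6 higher (27.2% of all genes) and 2 lower (27.3%). Libraries did not overlap for 5, 7 and 6 members, beside 54.6%, 56.1% and 61.9% of all genes, and the first and last of these counts are near background. A called change of at least 2-fold was seen in 0, 1 and 1 members, HEM13 in both cases, beside 0.696%, 3.54% and 4.56% of all genes. The median log2 fold change of the members was 0.01, 0.19 and 0.30, beside 0.03, -0.01 and 0.00 for all genes.

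Beyond HAP1 and ROX1, 13 regulators of heme- and oxygen-responsive genes were followed. Between the colours of the mutant 10 were higher and 2 lower in K504E-white (27.2% and 27.3% of all genes), with a median log2 fold change of 0.45. UPC2, an activator of sterol and anaerobic genes, differed by 0.71 (SE 0.109), and MOT3, a repressor that acts with Rox1 on hypoxic genes, by 0.56 (SE 0.0888). MGA2, an activator of the desaturase gene OLE1, differed by 0.52 (SE 0.0541), and IXR1, which acts on hypoxic genes, by 0.49 (SE 0.0638). CYC8 and TUP1, the subunits of the corepressor that Rox1 recruits, differed by 0.45 (SE 0.0555) and 0.38 (SE 0.0562). ECM22 (0.46), SPT23 (0.27), HAP4 (0.21) and SUT1 (0.46) were the other 4 higher. HAP5 (-0.40) and HAP3 (-0.35) were lower. Not called without a library were HAP4 (K504E-white replicate 2, 0.15) and HAP3 (K504E-white replicate 2 (-0.25), K504E-white replicate 1 (-0.34) or K504E-red replicate 2 (-0.24)). The call of SUT1, a regulator of sterol uptake, was retained under 7 of 18 alternatives, and its value was 0.31 without K504E-white replicate 1.

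Relative to WT-red, 3 of the 13 regulators were higher and 3 lower in K504E-red (25.8% and 21.7% of all genes), with a median of -0.05. MOT3 fell from 49.3 ± 1.82 to 31.1 ± 2.34 CPM (SD, n = 3), a log2 fold change of -0.67 (SE 0.0888). UPC2 was at -0.57 (SE 0.110) and MGA2 at -0.34 (SE 0.0541). HAP2, HAP4 and HAP5, subunits of the heme-activated CCAAT-binding complex, were higher, at 0.43 (SE 0.0752), 0.16 (SE 0.0627) and 0.30 (SE 0.0884). HAP4 was called under 2 of 18 alternatives, and its value was 0.07 without WT-red replicate 1. HAP5 was not called without K504E-red replicate 3 (0.22) or WT-red replicate 2 (0.20). HAP3, the remaining subunit, was at 0.02, and ECM22, SPT23, IXR1, CYC8, TUP1 and SUT1 ranged from -0.36 for SUT1 to 0.13 for SPT23 and were not called. TUP1, at -0.14, was called lower under 12 of 18 alternatives. The number of regulators called lower rose to 6 without WT-red replicate 1 and to 5 without K504E-white replicate 3, and the number called higher was 1 without K504E-red replicate 3.

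Compared with WT-red, K504E-white had 8 regulators higher and 1 lower (23.3% and 23.5% of all genes), with a median of 0.24. HAP2, at 0.55 (SE 0.0749), ECM22, a sterol regulator, at 0.48 (SE 0.0740), IXR1 at 0.44 (SE 0.0636) and SPT23, a relative of MGA2, at 0.40 (SE 0.0646) had the largest log2 fold changes. HAP4 (0.37), CYC8 (0.36), TUP1 (0.24) and MGA2 (0.18) were the other 4 higher, MGA2 not without K504E-white replicate 2 (0.16), K504E-white replicate 1 (0.10) or WT-red replicate 1 (0.11). HAP3 was lower, at -0.33 (SE 0.118), but not called without K504E-white replicate 2 (-0.27), WT-red replicate 2 (-0.34) or WT-red replicate 1 (-0.31). MOT3 (-0.11), HAP5 (-0.09), UPC2 (0.14) and SUT1 (0.10) were not called.

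**Figure D5:**
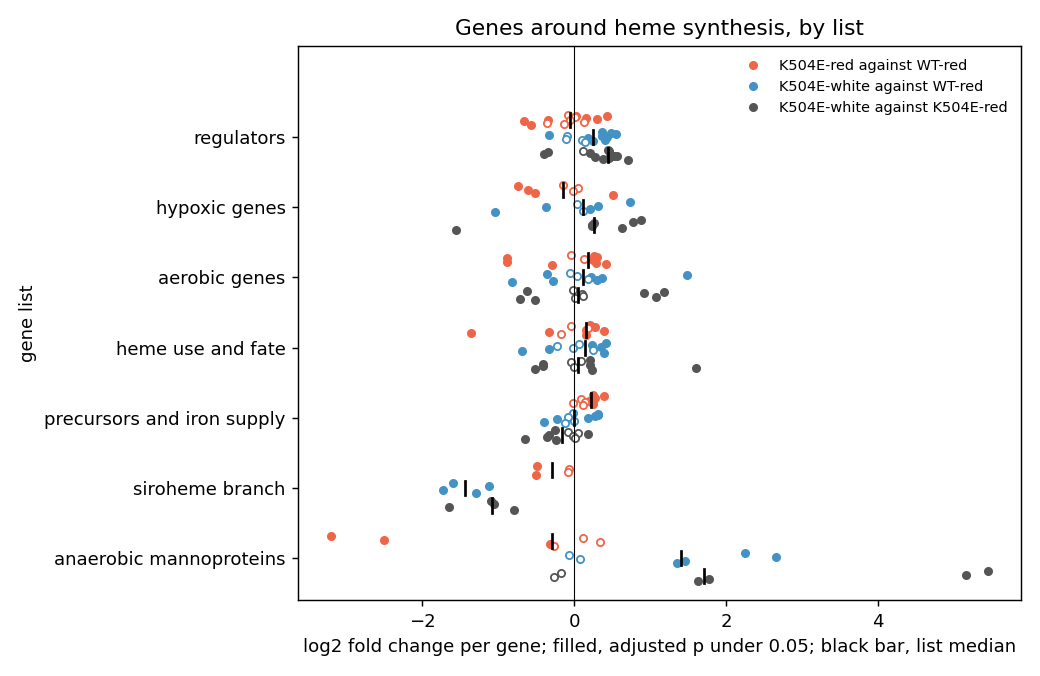
Log2 fold change (x axis) of each gene in 7 lists (y axis) in the 3 comparisons; filled points have an adjusted p under 0.05 by edgeR and black bars are list medians. All 4 siroheme branch genes lie below 0 in each comparison, and DAN1 and TIR1 are at -3.20 and -2.51 for K504E-red versus WT-red and at 5.44 and 5.16 between the colours.

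Of 8 further genes that Rox1 represses or that are induced without oxygen, 7 had a row. Relative to WT-red, 3 were lower and 1 higher in K504E-red (21.7% and 25.8% of all genes). ANB1, the hypoxic form of translation factor eIF5A, went from 498 ± 23.5 to 299 ± 21.6 CPM (SD, n = 3), a log2 fold change of -0.74 (SE 0.0614). ERG11, the heme-containing lanosterol demethylase, was at -0.61 (SE 0.0754), and OLE1, the fatty acid desaturase, at -0.51 (SE 0.0658). ANB1 has a close paralog, HYP2, which had no row under its locus tag in the count table, so the value of ANB1 is uncertain. Between the colours 6 of the 7 were higher and 1 lower (27.2% and 27.3% of all genes), with AAC3, the ADP/ATP carrier of anaerobic cells, at 0.88 (SE 0.146), ANB1 at 0.77 (SE 0.0614) and OLE1 at 0.63 (SE 0.0659). Without K504E-white replicate 1, ERG11 (0.11) and CYC7 (0.18) were not called there. Compared with WT-red, K504E-white had AAC3 (0.73, SE 0.145), CYC7, the hypoxic cytochrome c (0.32, SE 0.0768), and HMG2 (0.21) higher and ERG11 (-0.37, SE 0.0751) and PUG1 (-1.04, SE 0.215) lower. These 3 higher and 2 lower of 7 stand beside 23.3% and 23.5% of all genes. ANB1, at 0.04, and OLE1, at 0.11, were not called there, whereas HEM13 was at 1.28. PUG1, a plasma membrane transporter of heme and protoporphyrin, went against most of the list. It had 5.39 ± 0.497 CPM for WT-red, 7.64 ± 1.54 for K504E-red and 2.61 ± 0.235 for K504E-white, a log2 fold change of -1.55 (SE 0.213) between the colours. Its rise in K504E-red was called under 4 of 18 alternatives, and was 0.32 without K504E-red replicate 3. List medians were -0.15 and 0.11 for K504E-red and K504E-white relative to WT-red, and 0.27 between the colours.

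Genes that heme activates through Hap1 or the CCAAT-binding complex did not share a direction. Of 10 with a row, K504E-red had 5 higher and 3 lower relative to WT-red (25.8% and 21.7% of all genes). HMG1, the aerobic HMG-CoA reductase, went from 249 ± 15.3 to 135 ± 8.09 CPM (SD, n = 3), a log2 fold change of -0.89 (SE 0.112). CYB5, cytochrome b5, was at -0.88 (SE 0.127), SOD2, mitochondrial superoxide dismutase, at 0.42 (SE 0.0497), and CYB2, a heme-containing lactate dehydrogenase, at 0.30 (SE 0.0900). CYB2 was not called there without K504E-red replicate 2 (0.20), WT-red replicate 2 (0.27) or WT-red replicate 1 (0.22), and the number called higher fell to 3 without WT-red replicate 1 or 2. Compared with WT-red, 4 were higher and 3 lower in K504E-white (23.3% and 23.5% of all genes). CYC1, among the 4 higher, was called under 10 of 18 alternatives, and was at 0.11 without K504E-white replicate 3. CYB2 had a level 2.80 times that of WT-red, a log2 fold change of 1.48 (SE 0.0901). YHB1, flavohemoglobin, was at -0.81 (SE 0.0562), CYT1, cytochrome c1, at 0.36 (SE 0.0587) and CTT1, cytosolic catalase, at -0.35 (SE 0.0887). Between the colours 3 were higher and 3 lower (27.2% and 27.3% of all genes), with CYB2 at 1.19, HMG1 at 1.07, CYB5 at 0.92 and SOD2 at -0.71. Medians were 0.19, 0.11 and 0.05. The second was -0.07 without K504E-white replicate 1.

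Among 10 genes that use, bind or degrade heme, ERG5, a heme-containing sterol desaturase, had the largest change in both comparisons with K504E-red. It had 270.3 ± 13.2 CPM for WT-red, 105 ± 9.51 for K504E-red and 319.7 ± 74.3 for K504E-white, with log2 fold changes of -1.36 (SE 0.116) for K504E-red versus WT-red and 1.60 (SE 0.117) between the colours. For K504E-white versus WT-red ERG5 was at 0.24 and not called (edgeR adjusted p 0.0869), and HMX1 had the largest change. HMX1, the heme oxygenase that degrades heme, fell from 46.4 ± 1.44 in WT-red to 28.7 ± 4.06 CPM in K504E-white, a log2 fold change of -0.69 (SE 0.0958), and differed by -0.52 (SE 0.0961) between the colours. CYT2, the heme lyase of cytochrome c1, rose in K504E-red relative to WT-red (0.40, SE 0.0730) and was lower in white than in red mutant cells (-0.41, SE 0.0729). DAP1, a heme-binding partner of sterol enzymes, was at -0.33 (SE 0.0668) and COX15, of heme A synthesis, at 0.28 (SE 0.0550) in K504E-red. CCP1, cytochrome c peroxidase (0.42, SE 0.0479), SCS7, a sphingolipid hydroxylase (0.39, SE 0.0560), and CYC3, the heme lyase of cytochrome c (0.36, SE 0.0588), rose in K504E-white relative to WT-red. CTA1, peroxisomal catalase, was at -0.41 (SE 0.0972) between the colours. In all, K504E-red had 5 higher and 2 lower relative to WT-red (25.8% and 21.7% of all genes). K504E-white had 4 higher and 2 lower (23.3% and 23.5% of all genes), and the colours differed in 4 higher and 3 lower (27.2% and 27.3% of all genes), with medians of 0.15, 0.14 and 0.05. Only 3 were called higher in K504E-red without WT-red replicate 1 or 2, K504E-red replicate 1 or 3, or any 1 of the K504E-white replicates 1, 2 and 3. The calls lost were those of CYC3 (0.15) and SCS7 (0.15), which were retained under 2 and 5 of 18 alternatives. Both were also lost with upper quartile scaling, either other count filter, limma or separate fits per comparison.

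Supply of substrates was followed in 10 genes, among them those of the α-ketoglutarate dehydrogenase and succinyl-CoA ligase steps, a glycine carrier and iron carriers of mitochondria. K504E-red had 6 higher than WT-red and 0 lower by edgeR, beside 25.8% and 21.7% of all genes. None was lower at an unadjusted p under 0.05, and 0 were lower by DESeq2 or limma. KGD1 (0.39, SE 0.0564) and KGD2 (0.27, SE 0.0499) encode dehydrogenase subunits, LSC1 (0.25, SE 0.0527) a ligase subunit and HEM25 (0.24, SE 0.0927) the glycine carrier. HEM25 was called under 7 of 18 alternatives, and was at 0.15 without WT-red replicate 1. K504E-white had 4 higher and 2 lower than WT-red (23.3% and 23.5% of all genes), with KGD2 at 0.31, KGD1 at 0.31 and LPD1, the shared dehydrogenase subunit, at 0.27. Only 1 of them was lower without WT-red replicate 3. LSC2, among the 4 higher at 0.19, was not called without WT-red replicate 1 (0.13) or 2 (0.15). It was also not called without K504E-white replicate 1 (0.15) or 2 (0.16). Between the colours 1 was higher and 5 lower (27.2% and 27.3% of all genes). MRS4, an iron carrier, had the largest fall, -0.40 (SE 0.0655) relative to WT-red and -0.64 (SE 0.0655) relative to K504E-red. MRS3, the other iron carrier listed, was called in no comparison. It was at -0.01 and 0.00 for K504E-red and K504E-white relative to WT-red and at 0.01 between the colours. MCX1, which promotes loading of the cofactor into Hem1, was at -0.36 (SE 0.0679), LSC1 at -0.32 and HEM25 at -0.25 between the colours. HEM25 was not called there without K504E-white replicate 3 (-0.24), K504E-white replicate 1 (-0.22), K504E-red replicate 3 (-0.25) or K504E-red replicate 1 (-0.18). Medians were 0.22, 0.00 and -0.16.

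Uroporphyrinogen III, made by Hem4, is also the precursor of siroheme, the cofactor of sulfite reductase. All 4 genes of that branch were lower in K504E-white than in either red group (23.5% and 27.3% of all genes lower). MET1, the methyltransferase that opens the branch, went from 165 ± 21.4 CPM in WT-red and 118 ± 4.23 in K504E-red to 55.0 ± 4.17 in K504E-white, with log2 fold changes of -1.59 (SE 0.0829) and -1.10 (SE 0.0826). MET8, which completes siroheme, was at -1.29 (SE 0.108) and -0.80 (SE 0.108). MET5 and MET10, the sulfite reductase subunits, were at -1.73 (SE 0.0745) and -1.12 (SE 0.0834) relative to WT-red and at -1.64 and -1.06 between the colours. HEM4 was at 0.34 relative to WT-red. K504E-red had MET1 (-0.49) and MET8 (-0.50) lower than WT-red, while MET5 (-0.09) and MET10 (-0.06) were not called. Medians were -0.29, -1.44 and -1.08.

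The anaerobic cell wall mannoproteins, which heme represses, held the largest changes among the lists. Of the 6 with a row, TIR1, DAN1, TIR3 and TIR4 were higher in K504E-white than in WT-red (23.3% of all genes higher), by 2.65 (SE 0.0848), 2.24 (SE 0.194), 1.46 (SE 0.115) and 1.36 (SE 0.155) on the log2 scale. DAN1 had 10.3, 17.4 and 16.6 CPM for WT-red, 1.64, 1.28 and 1.88 for K504E-red and 94.7, 55.2 and 60.8 for K504E-white. K504E-red was at -3.20 (SE 0.256) for DAN1, -2.51 (SE 0.0969) for TIR1 and -0.32 (SE 0.118) for TIR3 relative to WT-red, and TIR3 was not called without K504E-red replicate 2 (-0.31), K504E-red replicate 1 (-0.32) or WT-red replicate 1 (-0.24). Between the colours TIR3 differed by 1.78 and TIR4 by 1.63. TIR2 and DAN4 were called in no comparison, but between the colours DAN4 was called without K504E-red replicate 3 (-0.25) and TIR2 without K504E-white replicate 1 (-0.41). Genes of this family resemble each other in sequence, so reads could be shared between them. Medians were -0.29, 1.41 and 1.70.

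Profiles most like that of HEM13 over the 9 libraries were those of TIR3, SUC2 and URA1, with root mean square differences of log2 CPM, after centring, of 0.17, 0.20 and 0.22 among 4871 genes compared. SUC2, invertase, had 299.7 ± 47.9, 209 ± 24.5 and 702 ± 39.0 CPM in WT-red, K504E-red and K504E-white (SD, n = 3). URA1, dihydroorotate dehydrogenase of pyrimidine synthesis, had log2 fold changes of -0.77 and 1.40 for K504E-red and K504E-white relative to WT-red. Most like ROX1 were ACS2, acetyl-CoA synthetase, YEH1, a sterol esterase, and SED5, a Golgi membrane protein, with differences of 0.10, 0.12 and 0.12. ACS2 had 964 ± 29.0, 703 ± 22.8 and 850.4 ± 97.3 CPM in the same order of groups.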

How the data were processed

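Read counts per gene, as deposited, are whole numbers with a column for each library, and the authors also deposited FPKM per library. Contig names in the files are those of a W303 assembly. Aligner, counter and strand use are not given in the sources used here, so reads of near-identical or overlapping genes could have been split. No member overlaps another gene of the table. Symbols came from the RefSeq table of S288C by locus tag (5162 of 5205 matched).

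Genes of low count were removed with filterByExpr, leaving 5172. After TMM scaling (factors 0.978 to 1.04), edgeR 4.0.16 in R 4.3.3 gave two-sided quasi-likelihood tests from a single model of the 9 libraries with group as its term. Benjamini-Hochberg adjustment ran over all genes tested, and a gene was called, or changed, at an adjusted p under 0.05. SE came from the F statistic, and 95% intervals assume a normal distribution. The code was tested on simulated data. The 18 alternatives were size factors of DESeq2, upper quartile scaling, 2 other count filters (minimum 1 in any or 10 in all libraries), DESeq2 1.42.0, limma 3.58.1 on log2 FPKM with a pseudocount of 1 or 0.1, separate fits per comparison, a replicate block, and leaving out each library.

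The members and the 7 further lists (64 genes, 60 with a row) were chosen with earlier results of these data known. The text names all members and regulators, up to 4 called genes of largest change per other list and comparison, and the 3 most like profiles among genes of at least 10 CPM. HMG2, CYC1, LSC2, MRS3, MET5, MET8, MET10, DAN4, TIR2 and the second values of named genes were added after their values were seen. Plots used matplotlib 3.10.9.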

Additional observations from a re-analysis of the deposited data

Results flagged for a closer look

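HEM13 stood out among the members because red and white mutant cells moved in opposite directions from WT-red. The transcript was lower in K504E-red (log2 fold change -0.57, SE 0.0721) and higher in K504E-white (1.28, SE 0.0726), in 3 of 3 libraries each. The difference between these effects equals white versus red mutant cells, at 1.85 (SE 0.0739, edgeR adjusted p 6.89e-13). HEM13 was the only member called in opposite directions relative to WT-red. TIR1 and DAN1, among the 6 anaerobic mannoprotein genes, were at -2.51 and -3.20 in K504E-red and at 2.65 and 2.24 in K504E-white. In the further lists TIR3 (-0.32 and 1.46) and MGA2 (-0.34 and 0.18) were also called lower in K504E-red and higher in K504E-white. SOD2 (0.42 and -0.28), CTT1 (0.26 and -0.35), MRS4 (0.24 and -0.40) and PUG1 (0.51 and -1.04) were called the other way round. Not all of these calls were firm. For K504E-red versus WT-red, PUG1 was called under 4 of 18 alternatives, CTT1 under 12, TIR3 under 15 and MRS4 under 17. CTT1 libraries overlapped there. MGA2 was called under 15 of 18 alternatives for K504E-white versus WT-red. The share of all genes with opposite calls was not computed.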

How the results depend on the processing

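Of 540 values (30 member changes under 18 alternatives), 506 retained direction and call, 21 lost the call, 9 gained it and 4 changed sign. The sign changes were all in changes not called. For K504E-red versus WT-red without K504E-red replicate 3 they were HEM4 (-0.0190, where omission of single libraries gave up to 0.155) and HEM12 (-0.0184, up to 0.0702). For K504E-white versus WT-red they were HEM2 without K504E-white replicate 1 (-0.00171, up to 0.0464) and ROX1 without K504E-white replicate 3 (0.0327, down to -0.294). The cause was not tested. HEM14 for K504E-red versus WT-red gave 14 of the 21 lost calls, HEM4 gave 6 and ROX1 gave 1. Members called numbered 3 to 4, 5 to 7 and 7 to 8 over the alternatives, and all genes called 2019 to 2493, 2113 to 2511 and 2510 to 2913, for K504E-red and K504E-white relative to WT-red and for white versus red mutant cells. Same-numbered replicates did not deviate together (correlations -0.11 to 0.0274 over 9 pairs), so the numbers were not taken to pair the samples. With the replicate block 2389, 2360 and 2775 genes were called, and 4, 6 and 8 members, as many as without it. Of the anaerobic mannoproteins, TIR2 was called higher for K504E-red versus WT-red with that block (0.34, adjusted p 0.0479), against 0.33 (edgeR adjusted p 0.0755) without it.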

Other observations

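Within groups the members had coefficients of variation of 1.87% to 13.0% in CPM, except ROX1 in K504E-white at 22.5%. Some but not all sterol-related genes of the lists and the regulator SUT1 also spread widely there, some of them not only there. SUT1 had 29.7% in K504E-white and 23.9% in K504E-red, and CYB5 had 20.03% and 17.8%. HMG1, ERG5 and UPC2 had 23.9%, 23.2% and 16.9% in K504E-white and at most 11.2% in either red group. The mannoprotein genes DAN1 and TIR4 reached 30.5% and 29.2% in K504E-white, and DAN1 had 26.3% in WT-red. TIR3, TIR2 and AAC3 had 18.7%, 18.0% and 17.2% in K504E-white. Other sterol-related genes spread less there, with HMG2 at 1.65%, ECM22 at 9.72%, DAP1 at 10.3% and ERG11 at 14.5%. For K504E-white replicates 1, 2 and 3, HMG1 had 358, 266 and 226 CPM, ERG5 had 394, 320.0 and 245, CYB5 had 118, 97.9 and 78.5, SUT1 had 31.9, 30.6 and 17.5 and UPC2 had 70.2, 63.0 and 49.9. ROX1 had 156, 136 and 98.3 CPM and HEM13 1358, 1248 and 1281 in the same libraries. These genes were picked after their values were seen, and replicate numbers have no order.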
